A study of Mus musculus with 18 samples.

Results

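Runx1, Arhgdig, Stbd1, Aldh3b1, Fam19a5, and Plekhh1 are 6 of the 35150 genes measured in mouse whisker pad after the facial nerve was cut. They were picked because the difference between the denervated and the sham side was larger at day 3 than at day 1. For each gene the values of its Ensembl transcripts were summed. RNA was taken from punch biopsies of skin and muscle of the rostral whisker pad in 9 adult mice of both sexes, with 3 mice at each of days 1, 3, and 7. In every mouse 2 branches of the right facial nerve, the buccal and the superior marginal, were transected. The left side was the sham control, with a skin incision that was closed again and an uncut nerve, which gives 18 samples in 9 pairs. Because the lesion was always on the right, an effect of the lesion and a difference between left and right whisker pads cannot be told apart. The values are TPM, transcript levels scaled for transcript length and depth, which the authors also normalized between samples. The sources used here do not give the strain of these mice, and the 3 mice of a day are different animals from those of the other days.

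When a motor nerve is cut, the muscle fibers it served lose contact and activity, and they turn on genes that are normally held down outside the synapse. Runx1, the DNA-binding part of core binding factor, is best known from blood cell formation and is also a transcription factor that denervated muscle fibers switch on. Stbd1 encodes a protein with a starch-binding domain that ties glycogen to membranes, and Aldh3b1 encodes an aldehyde dehydrogenase. Fam19a5, also known as Tafa5, encodes a small secreted protein of the TAFA family. Plekhh1 encodes a protein with pleckstrin homology, MyTH4, and FERM domains. On build GRCm38 the genes lie at chr16:92601466-92826149 (Runx1, minus strand), chr17:26199183-26207786 (Arhgdig, minus), chr5:92603041-92606579 (Stbd1, plus), chr19:3913491-3929808 (Aldh3b1, minus), chr15:87544299-87759364 (Fam19a5, plus), and chr12:79029163-79081655 (Plekhh1, plus).

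Runx1 has 2 start regions, which lie 128821 bases apart on the minus strand of chromosome 16. Both are shown because the transcripts that begin at them were found at very different levels. The windows are the 250 bases before the RefSeq start, on build GRCm38.p6, at chr16:92826075-92826324 for the distal start and chr16:92697330-92697579 for the proximal start. Plekhh1, which had the largest difference of the 6 genes at day 7, is shown for comparison, at chr12:79028913-79029162 on the plus strand. This window lies before the start of the full-length transcript Plekhh1-201 and not before Plekhh1-203, the transcript that held most of the Plekhh1 level. Capitals mark each E-box, CANNTG, the short sequence that basic helix-loop-helix factors such as myogenin bind. The motif reads alike on both strands.
Runx1 distal start: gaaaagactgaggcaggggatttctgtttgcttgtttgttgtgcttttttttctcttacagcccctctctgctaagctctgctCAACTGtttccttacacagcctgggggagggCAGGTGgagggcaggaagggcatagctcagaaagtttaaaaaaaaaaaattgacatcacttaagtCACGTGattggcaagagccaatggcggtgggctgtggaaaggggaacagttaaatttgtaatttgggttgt
Runx1 proximal start: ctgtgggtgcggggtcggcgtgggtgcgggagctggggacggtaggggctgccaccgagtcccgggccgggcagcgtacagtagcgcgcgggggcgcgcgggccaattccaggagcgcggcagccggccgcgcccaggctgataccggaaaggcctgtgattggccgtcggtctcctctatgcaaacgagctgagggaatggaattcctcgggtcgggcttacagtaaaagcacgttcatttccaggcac
Plekhh1 start: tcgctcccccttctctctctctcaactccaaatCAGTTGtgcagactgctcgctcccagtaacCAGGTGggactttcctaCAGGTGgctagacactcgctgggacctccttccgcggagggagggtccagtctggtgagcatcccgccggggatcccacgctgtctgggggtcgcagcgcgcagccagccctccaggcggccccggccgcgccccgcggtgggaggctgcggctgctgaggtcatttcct
The distal Runx1 window held 3 E-boxes and the proximal window 0, and the Plekhh1 window held 3. The annotated start of Runx1-201, at chr16:92826149, falls inside the distal window. The last E-box of that window, CACGTG, therefore lies after the start of Runx1-201 and not before it. The distal window was 45.6% G or C, against 67.6% for the proximal window and 66.8% for Plekhh1. RefSeq windows were matched for 5 of the 6 genes, 7 windows in all. An E-box was found in 4 of the 7, where 66.2% of 32851 promoter windows of mouse genes held one. The letters TGTGGT, the core of the site that RUNX proteins bind, or their reverse complement were found in 1 of the 7 windows, that of Aldh3b1, and in 14% of all windows. A match is a run of letters and not a measured binding site.

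On the sham side the 6 genes were expressed at low to moderate levels. The mean over the 9 sham samples was 10.6 ± 3.13 TPM for Stbd1, 7.51 ± 1.38 for Runx1, 4.57 ± 1.16 for Aldh3b1, 3.66 ± 0.449 for Fam19a5, 1.97 ± 0.31 for Arhgdig, and 1.94 ± 0.377 for Plekhh1 (SD, n = 9). Neighbors in this order overlapped in their ranges over the sham samples, except Fam19a5 and Arhgdig, which did not. All 6 genes were above 1 TPM in each of the 18 samples, so that none passed the filter on low values only through its denervated side. In these bulk biopsies, fewer cells of a type and less RNA per cell cannot be told apart.

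At day 1 after the lesion, the sides differed little. Every denervated sample lay above every sham sample for 2 of the 6 genes, Runx1 and Plekhh1. Of all genes, 5.61% had such separated groups in this direction at day 1. Since day 1 was used to pick the 6 genes, nothing is read from that count, and the values at days 1 and 3 are given without a test.

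Runx1 at day 1 was at 10.2, 7.65, and 6.48 TPM on the sham side and at 10.8, 14.4, and 10.9 TPM on the denervated side of the same mice. The sides of the first mouse were nearly level, and the other mice were higher on the denervated side. At day 3 Runx1 was at 8.8, 8.0, and 7.77 TPM on the sham side and at 39.0, 48.9, and 34.3 TPM on the denervated side. Here all 3 denervated samples were far above the sham samples. At day 7 it was at 6.6, 6.26, and 5.87 TPM on the sham side and at 25.2, 23.0, and 22.1 TPM on the denervated side, so that the groups were still apart but the denervated level was lower than in the day 3 mice. The mean within-mouse difference, denervated minus sham on log2(TPM + 0.5), was 0.55 ± 0.42 at day 1, 2.23 ± 0.27 at day 3, and 1.83 ± 0.03 at day 7 (SD, n = 3 mice each).

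Arhgdig was at 2.13, 1.47, and 2.53 TPM on the sham side and 1.73, 2.76, and 2.26 TPM on the denervated side at day 1. Only the second mouse was higher on the denervated side. At day 3 its sham samples were at 1.99, 2.2, and 1.72 TPM and its denervated samples at 20, 18, and 18.9 TPM, a ratio of means of 9.61. At day 7 the sham samples were at 2.01, 1.99, and 1.72 TPM and the denervated samples at 10.5, 10.6, and 7.23 TPM. The groups were apart at both later days. At its low sham level Arhgdig rests on few reads, an estimated 16 to 30 in a sham sample.

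Stbd1, the glycogen-binding gene, was the most abundant of the 6. It was at 5.99, 7.65, and 10.7 TPM on the sham side and 9.12, 12.3, and 9.24 TPM on the denervated side at day 1, where the groups overlapped and the third mouse was lower on the denervated side. At day 3 the sham samples were at 8.88, 11.4, and 9.66 TPM and the denervated samples at 57.8, 67.8, and 58.6 TPM. The 3 mice agreed closely at that day, with a within-mouse difference of 2.57 ± 0.06. At day 7 the sham samples were at 15.5, 10.8, and 15.1 TPM and the denervated samples at 42.2, 50.6, and 46.6 TPM. The sham side itself was at 13.8 ± 2.61 TPM at day 7 and 8.12 ± 2.4 TPM at day 1 (SD, n = 3), and the lowest sample of day 7 lay barely above the highest of day 1.

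Aldh3b1, the aldehyde dehydrogenase gene, was at 2.61, 3.77, and 4.55 TPM on the sham side and 3.28, 2.84, and 3.33 TPM on the denervated side at day 1. It was lower on the denervated side in 2 of the 3 mice. At day 3 the sham samples were at 5.66, 5.59, and 4.15 TPM and the denervated samples at 21.7, 21.4, and 29.1 TPM. At day 7 the sham samples were at 3.94, 4.46, and 6.45 TPM and the denervated samples at 8.04, 6.99, and 6.53 TPM. The third mouse of day 7 had nearly the same level on both sides, and the denervated level at day 7 was 29.8% of that at day 3, the smallest share among the 6 genes.

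Fam19a5, the TAFA gene, was at 3.17, 3.59, and 3.26 TPM on the sham side and 4.27, 3.45, and 3.67 TPM on the denervated side at day 1, with overlapping groups. At day 3 the sham samples were at 3.45, 3.63, and 3.52 TPM and the denervated samples at 16.4, 16.7, and 14.8 TPM. Both groups were tight at this day, with SDs of 0.0891 and 1.05 TPM. At day 7 the sham samples were at 4.1, 4.63, and 3.56 TPM and the denervated samples at 7.06, 9.99, and 7.08 TPM, which were apart but closer than at day 3.

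Plekhh1, the gene of the MyTH4 and FERM domains, was at 1.82, 1.57, and 1.39 TPM on the sham side and 2.16, 3.75, and 2.44 TPM on the denervated side at day 1. All 3 mice were higher on the denervated side, with ratios of 1.18, 2.39, and 1.76. At day 3 the sham samples were at 2.36, 1.98, and 2.2 TPM and the denervated samples at 21.1, 24.2, and 16.9 TPM. At day 7 the sham samples were at 2.54, 1.69, and 1.89 TPM and the denervated samples at 21.2, 20.7, and 17.6 TPM. The denervated levels of the day 3 and day 7 mice overlapped, and the day 7 mean was 95.7% of the day 3 mean.

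**Figure D1:**
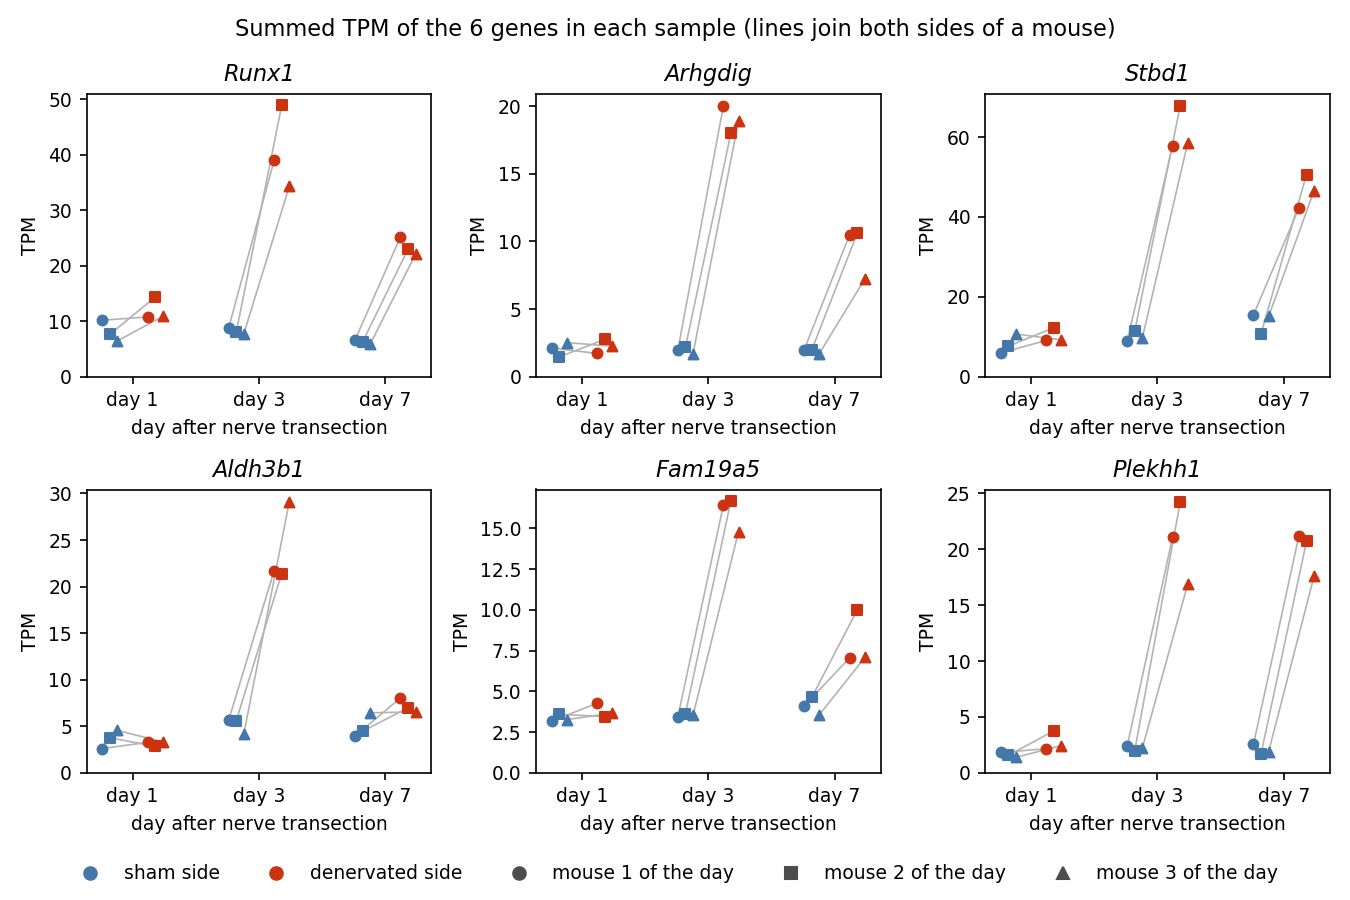
Summed TPM of each gene (vertical axis, starting at 0) on the sham side (blue) and the denervated side (red) at days 1, 3, and 7, where each symbol is a sample and a gray line joins both sides of a mouse. At days 3 and 7 all red symbols lie above all blue symbols of the day for each of the 6 genes.

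All 6 genes had a larger difference in the day 3 than in the day 1 mice, which is the rule by which they were picked. Their day 7 values are described here, and a difference between the genes was not tested. The mean within-mouse difference ranged from -0.158 to 0.625 at day 1 and from 2.03 to 2.98 at day 3, and the denervated side was higher in 12 of 18 gene and mouse pairs at day 1 and in 18 of 18 at day 3. In all 3 mice it was higher for 2 of 6 genes at day 1 and for 6 of 6 at day 3. Of all genes 15.1% were higher on the denervated side in all 3 mice at day 1 and 20.6% at day 3. For single gene and mouse pairs no share over all genes was taken. At day 3 every denervated sample was above every sham sample for 6 of 6 genes, as for 11.7% of all genes. At day 7 the mean differences ran from 0.518 to 3.01. The denervated level at day 7, as a share of that at day 3, was 95.7% for Plekhh1, 75.7% for Stbd1, 57.7% for Runx1, 50.3% for Fam19a5, 50.1% for Arhgdig, and 29.8% for Aldh3b1. Different mice were sampled at each day, so these shares compare animals and do not follow any animal over time. The shares are also not adjusted for tissue content. The summed skeletal muscle markers of the denervated samples were at 19500 to 21700 TPM at day 3 and at 26600 to 29900 TPM at day 7. The day 3 level also took part in picking the genes, so that a lower level at day 7 is not read as a decline. In a limma fit of all 18 samples, 0 of 14757 genes differed in their denervation effect between days 7 and 3.

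**Figure D2:**
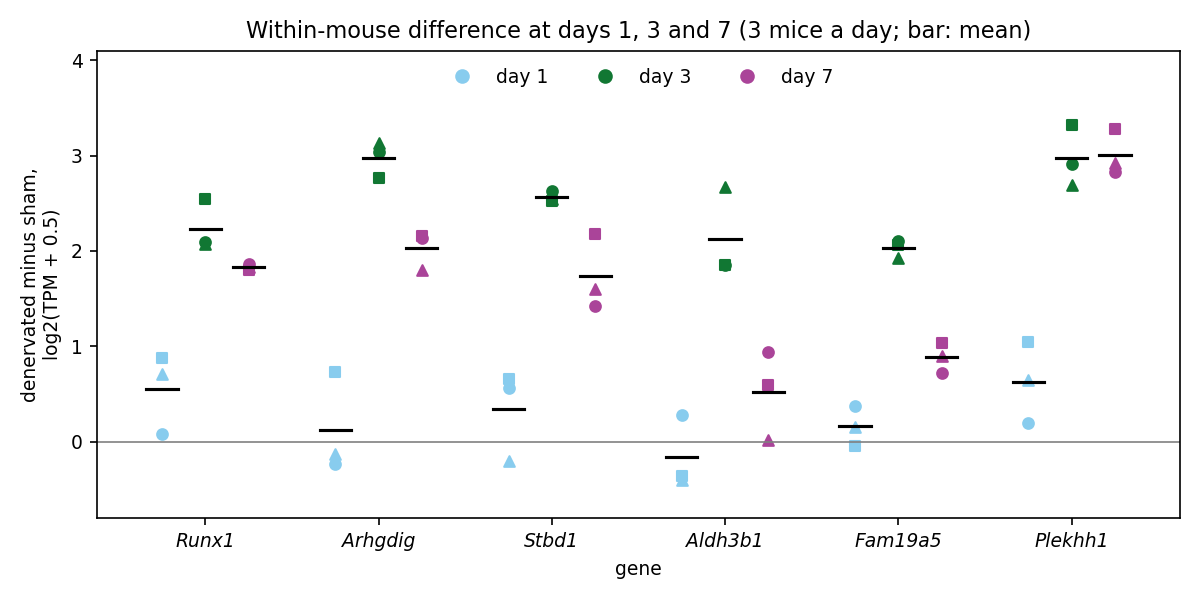
Difference between the denervated and the sham side of each mouse on the log2(TPM + 0.5) scale (vertical axis) for each gene (horizontal axis), with day 1 in light blue, day 3 in green, and day 7 in purple. Symbols are mice and black bars are the means of 3 mice, which lie between -0.158 and 0.625 at day 1 and between 2.03 and 2.98 at day 3, and spread from 0.518 for Aldh3b1 to 3.01 for Plekhh1 at day 7.

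By the difference between days 3 and 1 in a fit of all samples, the 6 genes had been picked from the top of a short list. They held 6 of the 8 lowest ranks by p, with Mef2a and Kcnn3 as the others. In all, 18 of 14757 genes (0.122%) passed, each with a larger rise at day 3, and 68 (0.461%) passed when the sides were paired by mouse, of which 48 had the larger difference at day 3. Naa50 and Zfp697 lay just inside the threshold, with differences of 0.94 and 1.42, and Myl12a and Igdcc4 lay just outside, with 1.31 and 1.39 (log2). The difference of Runx1 was 1.68, the smallest among the 6 genes, and that of Arhgdig was 2.86, the largest. As this contrast chose the genes, these values are a description.

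The genes were tested at day 7, whose values did not enter the difference between days 3 and 1. The fit behind that difference did take its estimate of the spread from day 7 as well. A small spread at day 7 thus made a gene easier to pick. The day 7 p-values of the 6 genes may therefore be too low. From the 12 samples of days 1 and 3 alone 6 genes passed, 5 of them among the 6 picked, and Runx1 was at rank 10 (adjusted p = 0.0807). Runx1, Arhgdig, Stbd1, and Plekhh1 rose on the denervated side, and Fam19a5 and Aldh3b1 did not pass. With limma over 15081 genes and Benjamini-Hochberg adjustment, 4 of 6 genes were called, where 1.53% of all genes were called and 1.01% were called higher. The rise of Plekhh1 on the log2 scale was 3.01 ± 0.17 (SE, adjusted p = 0.00213), and that of Arhgdig was 2.03 ± 0.19 (adjusted p = 0.00611). Runx1 rose by 1.83 ± 0.11 (adjusted p = 0.00217) and Stbd1 by 1.73 ± 0.17 (adjusted p = 0.00673). Among all genes tested, ranked by the size of the rise, Plekhh1 stood at place 23, Arhgdig at 59, Runx1 at 82, and Stbd1 at 89.

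For Fam19a5 the log2 fold change at day 7 was 0.88 ± 0.18 (SE), with a 95% interval of 0.45 to 1.32 and an adjusted p of 0.088. When the 2 sides were paired by mouse it passed, with an adjusted p of 0.0477, in a fit that called 328 of 15081 genes where the unpaired fit called 230. For Aldh3b1 it was 0.52 ± 0.20, with an interval of 0.048 to 0.988 and adjusted p = 0.364, and with the block 0.281. Both genes were nevertheless higher on the denervated side in 3 of 3 mice, and their groups did not overlap. The same holds for all 6 genes at day 7, where 10.6% of all genes had groups apart in this direction and 24.9% were higher in all 3 mice. The calls depended on the first and on the second mouse of the day. Leaving out a mouse also leaves fewer samples from which to estimate the spread. Without the first or without the second mouse 0 of the 6 genes passed, with adjusted p of 0.0955 and 0.0974 for Runx1 and 0.0689 and 0.0902 for Plekhh1, while 4 passed without the third. The log2 fold change of Runx1 was 1.82 and 1.84 in those smaller sets. Over all genes the count fell from 230 to 1 and 5 without the first or the second mouse and to 127 without the third.

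Most of the Runx1 level was assigned to the transcript that begins at the distal start. Runx1-201 spans 5861 bases and made up 90.7% of the Runx1 TPM summed over all samples. It was at 9.3, 6.74, and 5.46 TPM on the sham side and 9.13, 13.1, and 9.94 TPM on the denervated side at day 1. At day 7 it was at 5.77, 5.65, and 4.99 TPM on the sham side and 22.8, 21.1, and 19.8 TPM on the denervated side. This transcript rose at day 7 by 1.86 ± 0.14 on the log2 scale (SE, limma over 33372 transcripts, adjusted p = 0.014), a call that was lost with the sides paired by mouse (adjusted p = 0.092). Of all transcripts 0.387% were called and 0.255% were called higher. Runx1-202, which begins at the proximal start, made up 6.69% of the Runx1 TPM. Its day 7 values were 0.432, 0.308, and 0.72 TPM on the sham side and 1.84, 1.15, and 1.68 TPM on the denervated side. Its groups were apart, but every sham sample was below 1 TPM and every denervated sample above, so that it passed the filter on low values only through its denervated side and is given without a test. The share of Runx1-201 was 84.2% to 91.5% in the 9 sham samples and 84.5% to 94.0% in the 9 denervated samples, so that the ranges overlapped. The transcripts share 3147 bases, while 2714 bases of Runx1-201 are not in Runx1-202 and 1591 bases of Runx1-202 are not in Runx1-201. The last exon of Runx1-201 runs 2190 bases further than that of Runx1-202. The split between the transcripts thus rests in part on how Kallisto divided shared reads. An antisense gene, Gm26626, overlaps 106 bases of both and was not analysed here.

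Most of the Plekhh1 level was assigned to a transcript that is annotated without a coding sequence. Plekhh1-203, a processed transcript of 4106 bases, made up 77.6% of the Plekhh1 TPM. It begins with a first exon of its own of 50 bases at chr12:79067609-79067658, after 14 exons of the full-length coding transcript Plekhh1-201, and shares 4056 bases with it. It has only those 50 bases that Plekhh1-201 lacks, while Plekhh1-201 has 2383 bases that Plekhh1-203 lacks. The share of Plekhh1-203 too rests in part on how Kallisto divided shared reads. At day 3 this transcript was at 2.15, 1.9, and 2.12 TPM on the sham side and 15.5, 17.9, and 13.2 TPM on the denervated side. At day 7 it was at 1.7, 1.4, and 1.77 TPM on the sham side and 15.3, 16.4, and 14.2 TPM on the denervated side, and it rose by 2.90 ± 0.17 on the log2 scale (SE, limma, adjusted p = 0.0126, or 0.092 when paired by mouse). The level assigned to the full-length transcript was far lower. Plekhh1-201 was at 0.547, 0.283, and 0.123 TPM on the sham side and 3.83, 2.24, and 1.82 TPM on the denervated side at day 7, and it too passed the filter only through its denervated side. Plekhh1-202, a short transcript of 430 bases that shares 275 with Plekhh1-201 and 0 with Plekhh1-203, was listed at 0 in 10 of 18 samples. It was at 4.48, 4.18, and 2.46 TPM in the denervated samples of day 3, where its sham samples were all listed at 0.

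**Figure D3:**
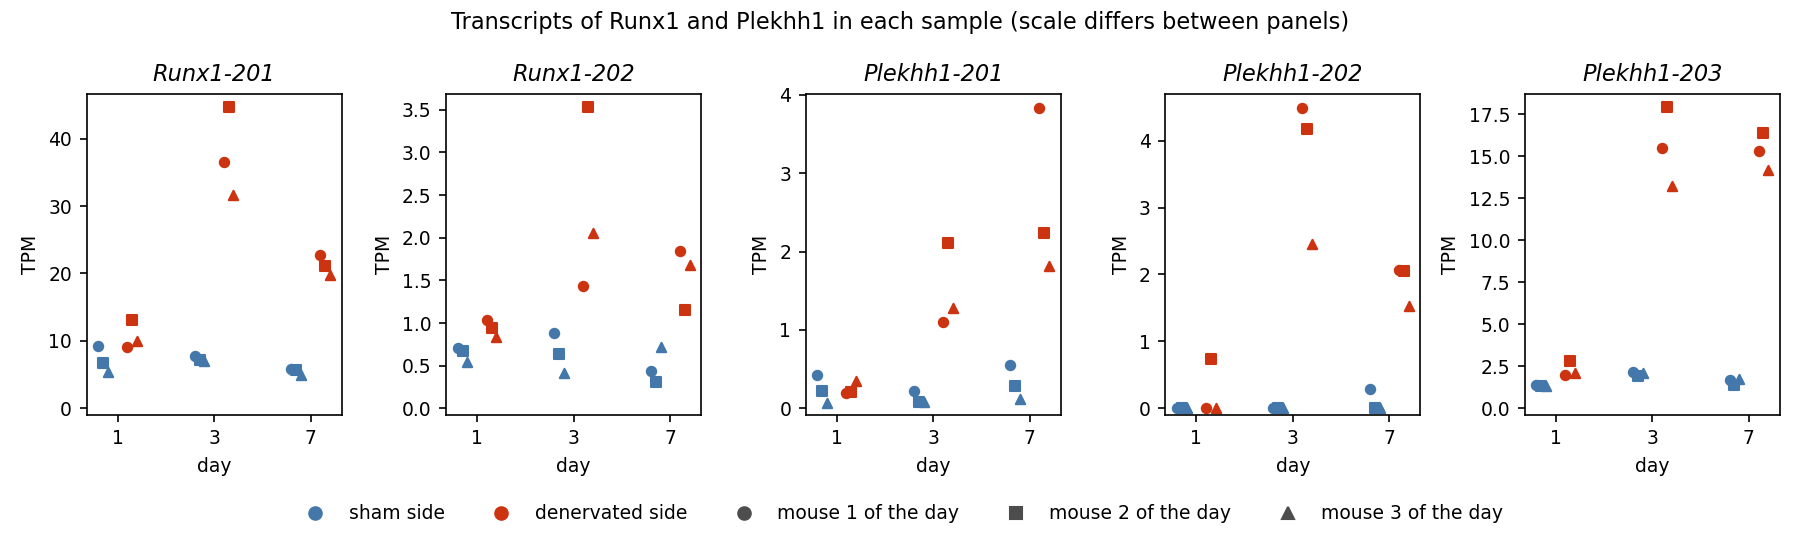
TPM of 2 transcripts of Runx1 and 3 of Plekhh1 (vertical axes, different scales) on the sham (blue) and the denervated side (red) at days 1, 3, and 7, where each symbol is a sample. Runx1-201 and Plekhh1-203 were assigned most of the level of their genes, with 22.8, 21.1, and 19.8 TPM and with 15.3, 16.4, and 14.2 TPM on the denervated side at day 7.

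Part of Plekhh1 lies over another gene. Pigh, on the opposite strand, overlaps 985 bases of Plekhh1-203 and 992 of Plekhh1-201, and the library kit does not mark strand, so that reads from the overlap cannot be told apart. Pigh encodes a subunit of the enzyme that begins the GPI anchor. It was at 10.5 ± 0.581 TPM on the sham side and 19.6 ± 3.47 TPM on the denervated side at day 3 (SD, n = 3; limma, adjusted p = 0.0556). At day 7 it was at 10.7 ± 1.96 and 15.8 ± 1.9 TPM (adjusted p = 0.247). Its part in the Plekhh1 values was not tested. Rgs11 overlaps 138 bases of Arhgdig-204 on the opposite strand but none of Arhgdig-201, which made up 91.0% of the Arhgdig TPM.

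The other genes were simpler. Stbd1-201 made up 97.8% of the Stbd1 TPM and rose by 1.73 ± 0.18 on the log2 scale at day 7 (SE, limma, adjusted p = 0.0284), Fam19a5-201 made up 97.0% of its gene, and Aldh3b1-201 was the only transcript of Aldh3b1 with values. Arhgdig-201 was at 0.73, 1.61, and 1.72 TPM on the sham side and 9.46, 9.46, and 6.72 TPM on the denervated side at day 7, with an adjusted p of 0.0507. Of the 3 transcripts called at day 7, 0 passed when the sides were paired by mouse, where the adjusted p of Stbd1-201 was 0.134. Without any 1 of the 3 mice 0 passed as well.

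The listed relatives of 5 of the 6 genes did not pass the test at any day, and none was listed for Stbd1. Of 14 paralogs, 11 could be tested at day 7 and 0 were called in either direction, with a median log2 fold change of 0.104 beside 0.039 over all genes. Runx2, which drives bone formation, was at 2.09 TPM on the sham side and 3.95 TPM on the denervated side at day 7 (adjusted p = 0.123). Runx3 was at 1.25 and 1.72 TPM (adjusted p = 0.655). Arhgdia and Arhgdib, the paralogs of Arhgdig, were far more abundant than it and nearly level between the sides, with Arhgdia at 143 and 158 TPM and Arhgdib at 62.6 and 67.7 TPM at day 7 (adjusted p = 0.697 and 0.912). Aldh3b2 was at 44.1 and 45.8 TPM at day 7, Aldh3b3 at 2.35 and 2.84, Aldh3a1 at 147 and 160, and Aldh3a2 at 26.2 and 27.8 TPM. Plekhh2 was at 3.01 and 3.19 TPM and Plekhh3 at 28.2 and 21.1 TPM. Fam19a3 was at 2.32 and 2.68 TPM, and Fam19a1, Fam19a2, and Fam19a4 were too low to test at all 3 days. A difference between a gene and its paralog was not tested.

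Cofactors of RUNX proteins did not pass either. They had 0 of 8 called at day 1, 0 of 9 at day 3, and 0 of 9 at day 7. Cbfb, which pairs with every RUNX protein, was at 38.3 TPM on the sham side and 44.6 TPM on the denervated side at day 7 (adjusted p = 0.559). Calls at day 3 made up 1.45% of all genes.

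The list of glycogen genes held genes that make, break down, or regulate glycogen, which Stbd1 binds, and the autophagy gene Gabarapl1. Of these 0 of 20 rose and 1 of 20 fell at day 7, where 0.511% of all genes fell. The gene that fell was Phkg1, the catalytic subunit of muscle phosphorylase kinase, at 114 against 40.9 TPM (log2 fold change -1.47, adjusted p = 0.00332). At day 3 it was at 53.6 against 22.9 TPM, with an adjusted p of 0.249, or 0.023 when paired by mouse. For Gys1, which builds glycogen, the day 7 log2 fold change was -0.64, short of the threshold (adjusted p = 0.116), and Pygm, which breaks it down, was at 481 and 332 TPM at day 7 (adjusted p = 0.0928). Of the aldehyde dehydrogenases 0 of 20 were called at days 3 and 7, except that Aldh1a1 was called lower at day 3 with the block (adjusted p = 0.0385). Of the other MyTH4 and FERM proteins 0 of 4 were called, with Myo10 at 11.5 and 18.3 TPM at day 7 (adjusted p = 0.0698). Over these lists and the paralogs together 1 of 58 genes was called at day 7 and 0 of 59 at day 3 by limma, or 2 at day 3 (Phkg1 and Aldh1a1) with the block.

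Most genes of a list of known denervation genes rose at days 3 and 7. At day 1, 0 of 13 were called, at day 3 12 of 14 rose, and at day 7 11 of 15 rose, where 1.01% of all genes were called higher at either of these days. Some passed the filter only through the denervated side, with Chrng, Gdf5, and Musk below 1 TPM in every sham sample of day 3 and Gdf5 at day 7. Of the others 9 of 11 rose at day 3 and 10 of 14 at day 7. Those that rose at day 7 include Chrng, with a sham range of 0.181 to 1.92 TPM and a sham mean of 0.775 TPM. Chrng too needed its denervated samples to pass the filter at that day. Over the 13 genes tested at every day, the median log2 fold changes were 1.1, 2.99, and 2.96, beside 0.00699, -0.0149, and 0.039 over all genes. These calls too depended on which mice were kept, and leaving a mouse out also leaves fewer samples to estimate the spread. Over all the related lists, of which 12 genes were called at day 3 and 12 at day 7, there were 2 calls without the second and 0 without the third mouse of day 3, and 1 without the first and 2 without the second mouse of day 7. This list was chosen with results of these samples known and is not independent evidence of its direction. Among its members the acetylcholine receptor subunit genes Chrna1, Chrnb1, Chrnd, and Chrng rose at days 3 and 7, as did the myogenic factor Myog and the adhesion gene Ncam1. With the block, the day 3 call of Ncam1 was lost (adjusted p = 0.0589). At day 1 0 of 14776 genes were called by limma, while 634 had an unadjusted p under 0.05.

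**Figure D4:**
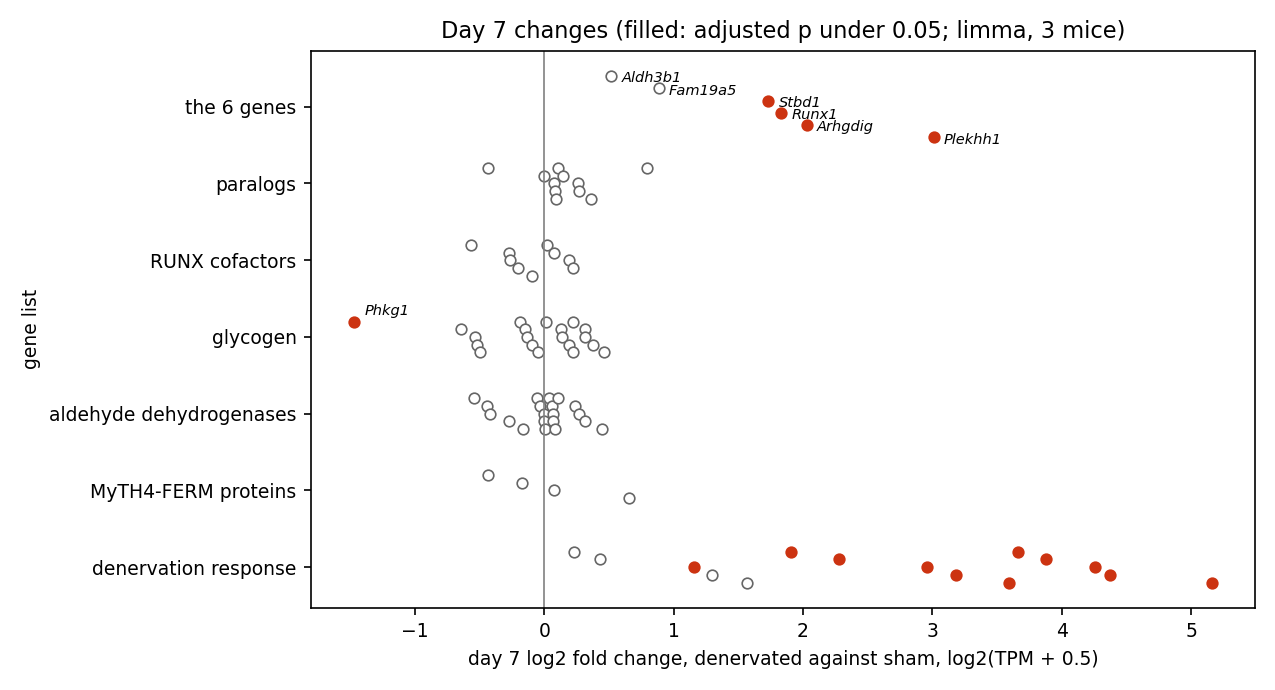
Day 7 log2 fold change of the denervated against the sham side (horizontal axis) for the 6 genes and the genes of 6 lists (vertical axis), where each circle is a gene and filled circles passed the test. Of the 6 genes 4 are filled, Phkg1 is the filled circle among 5 of the lists, and 11 of 15 are filled among the denervation genes.

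The pattern most like that of Runx1 over the mice was that of Peg3. Likeness was the root-mean-square difference between the 9 within-mouse values of a gene and those of Runx1, over 14756 genes. It was 0.294 for Peg3, a paternally expressed zinc finger gene, 0.305 for Tnfrsf12a, the receptor of the cytokine TWEAK, 0.426 for Zim1, a zinc finger gene, 0.443 for Pvr, a cell adhesion receptor, and 0.46 for Ttyh1, a membrane channel gene. Peg3 was at 9.84 TPM on the sham side and 39.3 TPM on the denervated side at day 3, and at 13.6 and 51.0 TPM at day 7. Tnfrsf12a was at 34.0 and 186 TPM at day 3 and at 34.8 and 99.5 TPM at day 7. Zim1 was low on the sham side, with means of 0.54, 0.893, and 1.02 TPM at days 1, 3, and 7. At such levels the 0.5 added before the log shrinks a difference, and its effect on the rank of Zim1 was not tested. Of the other picked genes Stbd1 ranked 6, Arhgdig 13, Fam19a5 26, Plekhh1 48, and Aldh3b1 101. Since the 6 genes were picked for a similar shape, their ranks are a description.

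The labels and the tissue were checked with marker genes. Myog, which denervated muscle fibers turn on, was at 16.6 to 51.5 TPM on the denervated side and 0.49 to 2.14 TPM on the sham side at day 1, and its groups were apart at days 3 and 7 as well. Muscle and skin markers were present in every sample. The summed level of the 10 skeletal muscle markers was low in both samples of the first mouse of day 1, with 5350 TPM on the sham side and 8110 TPM on the denervated side, where the other day 1 samples had 15400 to 26900 TPM. Without this mouse the mean day 1 difference was 0.79 for Runx1, 0.84 for Plekhh1, 0.30 for Arhgdig, 0.23 for Stbd1, 0.05 for Fam19a5, and -0.38 for Aldh3b1 (log2, n = 2). With every sample rescaled to the muscle markers, which moves the median of all genes from 0.00699 to 0.16 at day 1 and from -0.0149 to 0.17 at day 3, the mean day 3 differences were 2.21 to 3.15 and the mean day 1 differences -0.00753 to 0.746.

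Muscle markers were at like levels on both sides at day 3, with 20200 to 20600 TPM on the sham side and 19500 to 21700 TPM on the denervated side, and at day 7 with 27400 to 32300 and 26600 to 29900 TPM, where Ckm was called lower, 1 of 10. Of the markers of other cells, those of neutrophils were apart in summed level at days 3 and 7. The 4 neutrophil markers summed to 32.5 to 346 TPM on the sham side and 369 to 1470 TPM on the denervated side at day 3, with 0 of 4 called, and to 42.5 to 242 and 1350 to 2650 TPM at day 7, where S100a8 was called higher, 1 of 4. At day 1 their ranges overlapped, with 24.4 to 957 and 95.4 to 1990 TPM. Over all samples S100a8 and S100a9 reached up to 2040 and 653 TPM, and Retnlg and Csf3r, the other neutrophil markers, up to 34.5 and 7.99 TPM. The neutrophil sum thus rests mostly on S100a8 and S100a9, and it is not a count of neutrophils. The 8 macrophage and leukocyte markers were at 142 to 396 and 222 to 306 TPM at day 3 and at 141 to 413 and 277 to 619 TPM at day 7, overlapping at both days, with 0 of 8 called. The 5 hair follicle markers were at 1330 to 2340 TPM on the sham side and 382 to 1140 TPM on the denervated side at day 3, and overlapped at day 7 with 624 to 2510 and 713 to 1730 TPM, with 0 of 5 called at either day. The part of these cells in the levels of the 6 genes was not tested. The 6 Schwann cell markers were at 331 to 603 TPM on the sham side and 256 to 278 TPM on the denervated side at day 7. Of the epidermis, fibroblast, endothelium, and Schwann cell markers 0 were called at any day. No marker that was matched was at 0 in any sample.

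**Figure D5:**
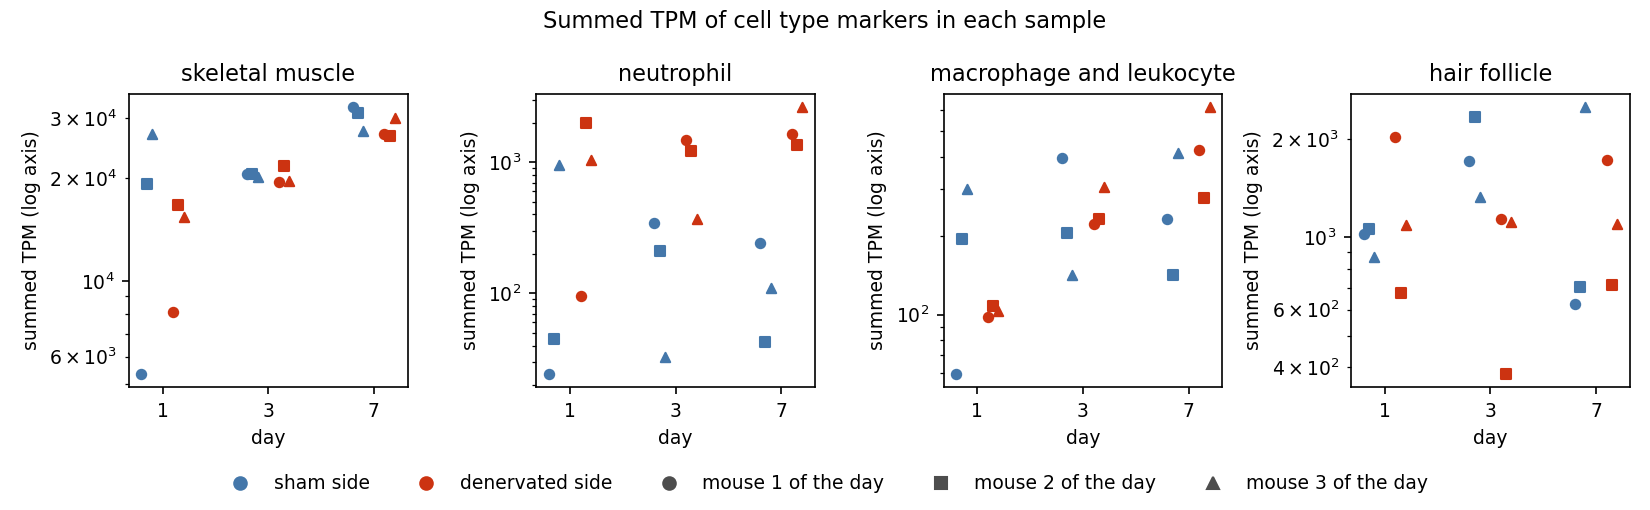
Summed TPM of 4 lists of cell type markers (vertical axes, log scale) on the sham (blue) and the denervated side (red) at days 1, 3, and 7, where each symbol is a sample. Both samples of the first mouse of day 1 are low in muscle markers, at 5350 and 8110 TPM, and the neutrophil markers of the denervated samples of day 7 lie at 1350 to 2650 TPM, above the sham samples.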

How the data were processed

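RNA sequencing of whisker pad biopsies was analysed in 18 samples. The authors made libraries with the TruSeq RNA kit v2, called bases with bcl2fastq 2.17.1.14, removed duplicate reads (ParDRe), trimmed adapters (Fastp), and assigned reads to GRCm38 cDNA with kallisto 0.43.1 before Sleuth. Removing duplicates can lower the levels of abundant transcripts. In the deposited table each value is a signal, TPM that had also been normalized across samples by the authors, with sums of 833186 to 1143839 per sample. The tests had been set for plain TPM and were kept. The TPM of 113194 transcripts, 98.459% of them matched to GENCODE M21, were summed over 35150 genes. The table has no read counts. An estimate of depth from the spacing of low values gave 10900000 to 32700000 reads per sample, median 14500000, which bears on counting error only.

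At each day the sides were compared over 6 samples with the moderated test of limma 3.58.1 (R 4.3.3), allowing a trend of the variance with the mean. Values were log2(TPM + 0.5), and a gene entered if 47% or more of these samples reached 1 TPM. Benjamini-Hochberg adjusted p-values under 0.05 were called. In this main fit they rest on the spread among the 3 samples of each side, with no term for the mouse. Differences between days were contrasts in a fit of 18 samples. The left and the right sample of a number come from the same mouse, and their deviations from the group means correlated at 0.131 to 0.511 in the 9 mice, so that the mouse was used as a block in a second version. The fits of each day and of day 3 minus day 1, with no block, were run on simulated data with independent samples. That run did not cover the block or the correlation between the sides of a mouse. Columns of day 7 were matched to samples by the sequencing sample number in the labels.

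The 6 genes and the lists of related genes and markers were chosen with earlier results of these data known. Named were the 6 genes, their paralogs, listed genes that passed, the 5 genes most like Runx1, and markers. The results of some listed genes are not reported here. Cbfb, Gys1, Pygm, Myo10, Mef2a, and the genes overlapping the 6 were named after their values were seen. Alternatives were pseudocounts of 0.1 and 1, other filters, 3 rescalings, the block, no trend, a fit of 18 samples, and leaving out each mouse. Means within day 1 without its first mouse and a fit of days 1 and 3 alone were added after seeing the data. Promoter sequences are from RefSeq. Tables and figures were made with Python 3.11.15 (pandas 2.3.3, numpy 2.4.6, matplotlib 3.10.9).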

Additional observations from a re-analysis of the deposited data

Results flagged for a closer look

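Among the related lists, 2 genes had a denervation effect that differed between days in the fit of all 18 samples. Kcnn3, the small-conductance potassium channel of denervated muscle, was at 1.06 TPM on the sham side and 1.67 TPM on the denervated side at day 1 and at 1.86 and 18.2 TPM at day 3. Its effect was larger at day 3 than at day 1 by 2.5 on the log2 scale (limma, adjusted p = 0.00303, or 0.0142 when paired by mouse). It was also larger at day 7 than at day 1, by 1.78 (adjusted p = 0.0383), a call that was lost with the block (adjusted p = 0.0745). For Ncam1, a neural cell adhesion molecule, the effect was larger at day 7 than at day 1 by 3.66 (adjusted p = 0.0266, and 0.0614 with the block), with 4.16 and 4.47 TPM on the sham and the denervated side at day 1 and 7.61 and 90.5 TPM at day 7. With the samples rescaled to the muscle markers 0 genes differed between days 3 and 1, Kcnn3 included.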

How the results depend on the processing

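The day 7 calls of Runx1, Arhgdig, Stbd1, and Plekhh1 held under 12 of 14 alternatives each. They were lost only without the first or without the second mouse of day 7, where adjusted p was 0.0955 and 0.0974 for Runx1, 0.186 and 0.156 for Arhgdig, 0.17 and 0.118 for Stbd1, and 0.0689 and 0.0902 for Plekhh1. Fam19a5 passed with the mouse as a block (0.88, adjusted p = 0.0477) and with all 18 samples in 1 fit (adjusted p = 0.00276), and Aldh3b1 under none. Leaving out each mouse gave 0 to 4 of the 6 genes at day 7, and 0 of their transcripts. The cause was not tested.

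Pairing by mouse with the replicate block moved the transcripts called among the 6 genes from 3 to 0. It moved the genes that differed between days 3 and 1 from 18 to 68 and between days 7 and 3 from 0 to 1, where 1013 had an unadjusted p under 0.05. Between days 7 and 1 it kept the total near, at 21 against 24, but those with the larger difference at day 7 went from 19 to 10. Of the denervation genes 3 in place of 1 differed between days 3 and 1, and 0 in place of 2 between days 7 and 1. The counts of all genes called at a single day moved by less than 1.5 times. The genes themselves changed more at day 3, where both fits called 217 genes and shared 148. At day 7 the fits shared 206 genes, of 230 called without the block and 328 with it.

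At day 1 the count of 0 genes became 1 with a TPM above 0 as the filter, 2 with equal sums, 22 with rescaling to muscle markers, 6 with no trend, and 30 with 1 fit of 18 samples. The related lists gave 2 at day 1 under that rescaling and 2 under that fit. At day 3 the 217 genes became 343 with the rescaling and 329 with that fit, and the higher share of calls went from 69.6% to 85.4% and 80.9%. At day 7 it went from 66.5% to 81.6% with that fit. The median day 3 difference of the 6 genes was 2.59 with the rescaling, against 2.40. Between days 3 and 1 the rescaling left 0 genes and a fit without the day 7 samples 6, against 18, and between days 7 and 1 it left 1 and equal sums 15, against 24. A pseudocount of 1 gave 1 between days 7 and 3.

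Leaving out 1 mouse gave 0 to 4 genes at day 1, 0 to 133 at day 3, and 1 to 127 at day 7. For the related lists it gave 0 to 10 at day 3 and 1 to 10 at day 7. For differences between days it gave 6 to 148 (days 3 and 1), 0 to 82 (days 7 and 1), and 0 to 1 (days 7 and 3).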
